A study of Mus musculus with 20 samples.

Results

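The collagen genes encode the alpha chains of the collagens, the most abundant proteins of the extracellular matrix. They were taken here as every protein-coding mouse gene whose symbol reads Col, a number, the letter a and a number, which gave 44 of the 55335 genes in the table. By the assembly that their chains form they fall into 9 classes. There were 11 fibrillar genes, 9 FACIT genes (fibril-associated collagens with interrupted triple helices), 6 of the basement membrane network, 6 of beaded filaments, 4 transmembrane, 3 of short-chain networks, 2 multiplexin, 1 anchoring fibril and 2 other genes.

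Collagen chains are hydroxylated and wound into trimers inside the cell, secreted, trimmed and then cross-linked outside it. In the heart the fibrillar types I and III, made mostly by fibroblasts, build the interstitial fibres, types V, XII, XIV and XVI sit in or on those fibres, and type IV forms the basement membranes around cardiomyocytes and vessels. Isoproterenol, a beta-adrenergic agonist, is commonly infused into mice as a model of cardiac hypertrophy with fibrosis.

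Hearts came from mice of the C57BL/6N strain, 3 to 5 months old, all kept on an NIH-31 diet and all carrying an osmotic minipump for 2 weeks. The 20 libraries formed 4 groups of 5: OGFOD1-KO mice with isoproterenol in PBS and Sodium Ascorbate, OGFOD1-KO mice with the same vehicle alone, WT mice with isoproterenol, and WT mice with vehicle. OGFOD1 is an oxygenase that hydroxylates a ribosomal protein. Which bases of its gene the knockout lacks, and in which cells, is not given in the sources used here. No label ties a library to a mouse of its own, so p-values measure the spread between libraries, which may be technical.

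Libraries held 14609808 to 43671055 counts, of which 16459 to 95206 fell on collagen genes. Ogfod1 measured 2.39 to 4.13 CPM (counts per 1000000 counts of the scaled library) in KO isoproterenol libraries, 2.49 to 4.08 CPM in KO vehicle, 18.7 to 21.8 CPM in WT isoproterenol and 16.9 to 20.9 CPM in WT vehicle libraries, so the targeted gene separated the genotypes. The 8 cardiomyocyte markers summed to 15828 to 20053 CPM, 19314 to 21195 CPM, 18583 to 21439.6 CPM and 20743 to 22088 CPM in the groups in the same order, and each marker was detected. A pair of libraries stood apart from the rest of their groups. The median chi-square per degree of freedom between KO isoproterenol replicate 5 and the others of its group was 27.0, against 5.55 to 8.68 for the other libraries there. WT vehicle replicate 2 had 64.6, against 6.83 to 9.83 in its group. Results are given with all 20 libraries and without KO isoproterenol replicate 5, and without both where that changes a call.

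Per length, the basement membrane chains Col4a1 and Col4a2 were the highest collagen genes of the heart. Levels between genes are compared here as mean CPM per kilobase (kb) of exon in WT vehicle libraries (SD, n = 5). Col4a1 stood at 37.5 ± 2.62 and its partner chain Col4a2 at 31.5 ± 1.86 CPM per kb, and the libraries of each gene did not overlap those of the next gene down. Col6a1, a chain of the beaded filaments that lie beside basement membranes, followed at 14.3 ± 1.44 CPM per kb, and Col3a1, the chain of fibrillar type III collagen, at 13.0 ± 2.65 CPM per kb, with libraries that overlapped. By the length of the longest coding transcript instead, Col3a1 (22.9 CPM per kb) stood before Col6a1 (15.3 CPM per kb).

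The multiplexin gene Col15a1, whose product sits at the outer face of basement membranes, came next with 8.55 ± 1.06 CPM per kb, then Col6a2 with 6.12 ± 0.356 CPM per kb. Col5a1, Col6a3, Col1a2, Col1a1 and Col4a5 followed with means of 4.60, 4.42, 4.29, 4.02 and 3.73 CPM per kb, and the libraries of each overlapped those of the next in this run. By longest coding transcript Col6a2 (10.9 CPM per kb) stood before Col15a1 (10.5), and Col1a2 (9.97) before Col6a3 and Col5a1 (5.23 and 4.65). Col14a1 was the highest FACIT gene (2.37 ± 0.338), Col8a1 the highest short-chain gene (1.68 ± 0.162), Col23a1 the highest transmembrane gene (0.298 ± 0.112), Col28a1 the higher of the other genes (0.264 ± 0.0580) and Col7a1 the anchoring fibril gene (0.0457 ± 0.0218 CPM per kb).

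Summed by class, basement membrane genes held 36.5% of the collagen signal per kb in KO isoproterenol, 50.6% in KO vehicle, 46.6% in WT isoproterenol and 50.2% in WT vehicle hearts. Fibrillar genes held 37.6%, 21.0%, 25.7% and 21.1% in the same order. Without KO isoproterenol replicate 5 the KO isoproterenol shares were 43.3% for basement membrane and 28.5% for fibrillar genes. In both genotypes the fibrillar share was thus larger under isoproterenol, and the basement membrane share smaller. The shares depend on the length used, here all exon bases of a gene, and were not computed by longest coding transcript. By that length WT vehicle levels were 22.9 instead of 13.0 CPM per kb for Col3a1 and 9.97 instead of 4.29 for Col1a2. For Col4a1 the level was 42.3 instead of 37.5 CPM per kb. The mean basement membrane level itself was not lower. It was 91.5 CPM per kb in KO isoproterenol (83.6 without replicate 5), against 77.0 in KO vehicle. In WT it was 89.9 CPM per kb with isoproterenol, against 74.6 with vehicle. The summed basement membrane CPM of the libraries overlapped in both genotypes. As a level, the summed fibrillar CPM was 379 to 2382 in KO isoproterenol libraries, against 220.3 to 359.6 in KO vehicle libraries, and 381 to 570.4 in WT isoproterenol libraries, against 247 to 377 in WT vehicle libraries. Neither pair of ranges overlapped.

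After the filter on low counts 33 collagen genes were tested. The 11 genes not tested were the cartilage collagens Col2a1, Col9a1, Col9a2, Col9a3 and Col10a1, and Col24a1, Col6a4, Col6a5, Col19a1, Col17a1 and Col26a1. Their highest value in any library lay between 0.0421 CPM for Col10a1 and 1.65 CPM for Col2a1, which reached that value in KO isoproterenol replicate 2.

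**Figure D1:**
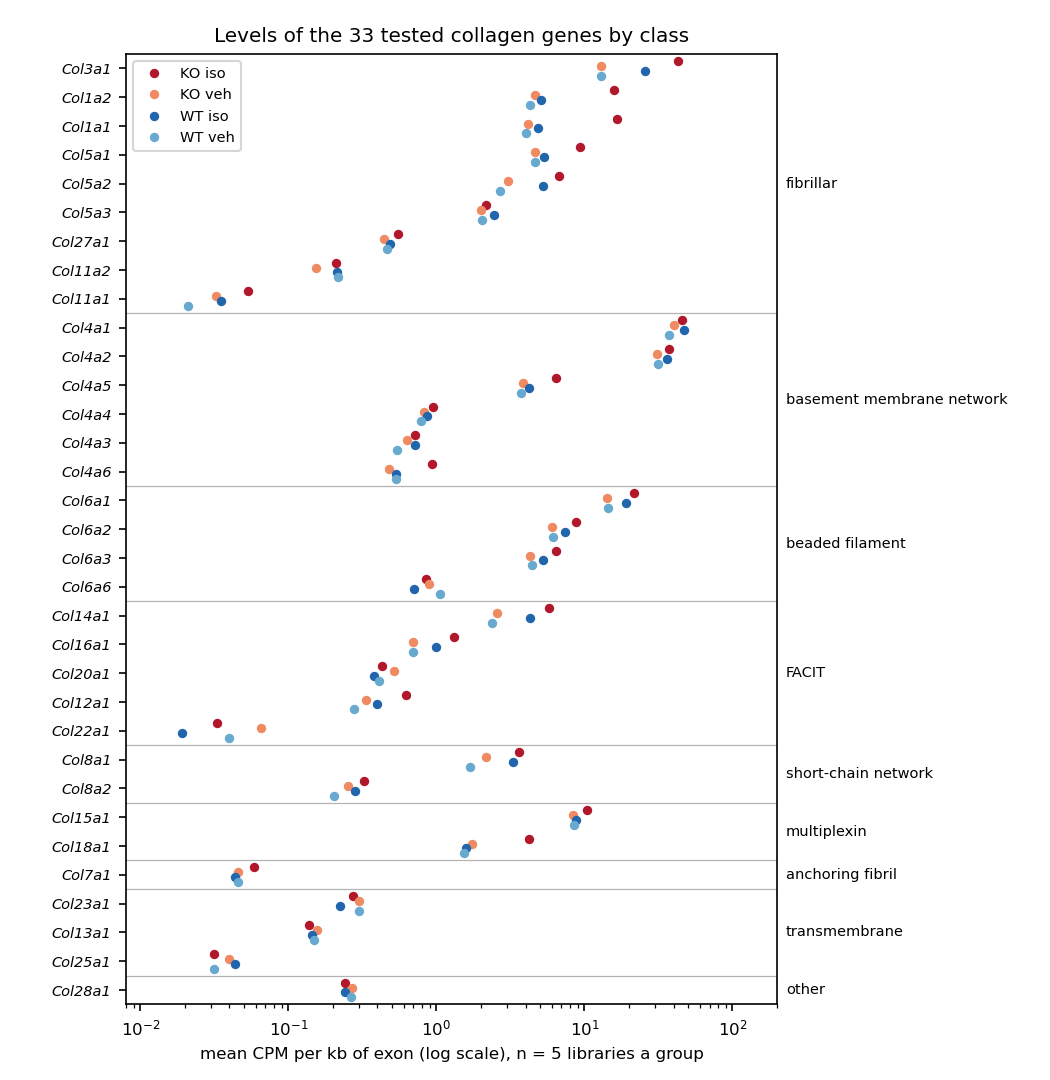
Mean level of each of the 33 tested collagen genes in CPM per kb of exon (log scale), by class, with 1 point per group (n = 5 libraries each). Col4a1 and Col4a2 lie toward the right in every group and Col3a1 reaches 42.7 CPM per kb in KO isoproterenol, where the mean includes replicate 5.

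Averaged over both genotypes, isoproterenol raised a core of 8 collagen genes: Col3a1 and Col5a2 of the fibrils, Col12a1, Col14a1 and Col16a1 of the FACIT class, Col6a1 and Col6a2 of the beaded filaments, and Col8a1 of the short-chain network. In this averaged response 11 collagen genes were higher under isoproterenol and 1 was lower (edgeR's quasi-likelihood F test over 14878 genes, with p adjusted by Benjamini and Hochberg and a threshold of 0.05), while 18.8% of all genes tested were called, 9.76% higher and 9.07% lower. The 8 genes kept that call in every fit that left out 1 library and under every other alternative tried. Col4a1 kept it in every fit that left out 1 library and lost it without both libraries that stood apart. The median log2 fold change was 0.40 over the 33 tested collagen genes and 0.01 over all genes tested. Without KO isoproterenol replicate 5, 10 were higher and 2 lower, against 18.1% of all genes called, 9.52% higher and 8.61% lower, and the collagen median was 0.20, against 0.00 over all genes.

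Within KO hearts, isoproterenol raised 9 collagen genes and lowered 0 (9.03% of all genes tested were called, 4.75% higher and 4.29% lower). Without replicate 5 of the KO isoproterenol group 8 of these 9 were still called, and only Col5a1 was lost, while 7.55% of all genes were called, 4.08% higher and 3.48% lower. Within WT hearts 5 were higher and 0 lower, against 8.76% of all genes called, 4.64% higher and 4.12% lower. In the fit without KO isoproterenol replicate 5, which leaves the WT libraries as they were but changes the shared estimate of the spread, 10 were higher and 1 lower, against 11.2% of all genes called, 6.00% higher and 5.23% lower. All 8 genes called in KO hearts in that fit were also among the 11 called in WT hearts. The unadjusted p was under 0.05 for 17 collagen genes in KO and 11 in WT hearts with all libraries (over all 14878 genes, 3435 in KO and 3421 in WT), and for 12 and 12 without KO isoproterenol replicate 5 (over 15017 genes, 3178 and 3698). The WT count moved with single libraries: it was 3 without WT isoproterenol replicate 1, 2 or 4, 2 without replicate 3 and 8 without replicate 5 of that group. It was 3 without WT vehicle replicate 2 or 4, and 2 without WT vehicle replicate 3 or 5.

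Markers of fibroblasts and pericytes also differed between treated and vehicle libraries, while the sums of smooth muscle markers overlapped. The 8 fibroblast markers summed to 923 to 1012 CPM in KO isoproterenol libraries, against 752 to 892 CPM in KO vehicle libraries, and to 829.9 to 937 CPM in WT isoproterenol libraries, against 674 to 806 CPM in WT vehicle libraries. Most of each sum was Gsn, with group means of 584 to 734 CPM. In the averaged response 6 of the 8 passed as higher, against 9.76% of all genes tested. None of the 8 was under 0.1 CPM in all libraries. The 6 pericyte markers summed to 868 to 950.0 CPM in KO isoproterenol, 745 to 824 CPM in KO vehicle, 875 to 965 CPM in WT isoproterenol and 721 to 790.5 CPM in WT vehicle libraries. The 8 smooth muscle markers summed to 443 to 1453 CPM, 446 to 566 CPM, 414 to 528 CPM and 433 to 542 CPM in the same order. Without KO isoproterenol replicate 5 the highest KO isoproterenol sum was 497 CPM. On average 0 of these 8 were higher and 0 lower (18.8% of all genes were called), and in WT 1 was lower (4.12% of all genes were). The part of these cell types in the collagen response was not tested, and in bulk tissue more cells of a type and more RNA per cell cannot be told apart.

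**Figure D2:**
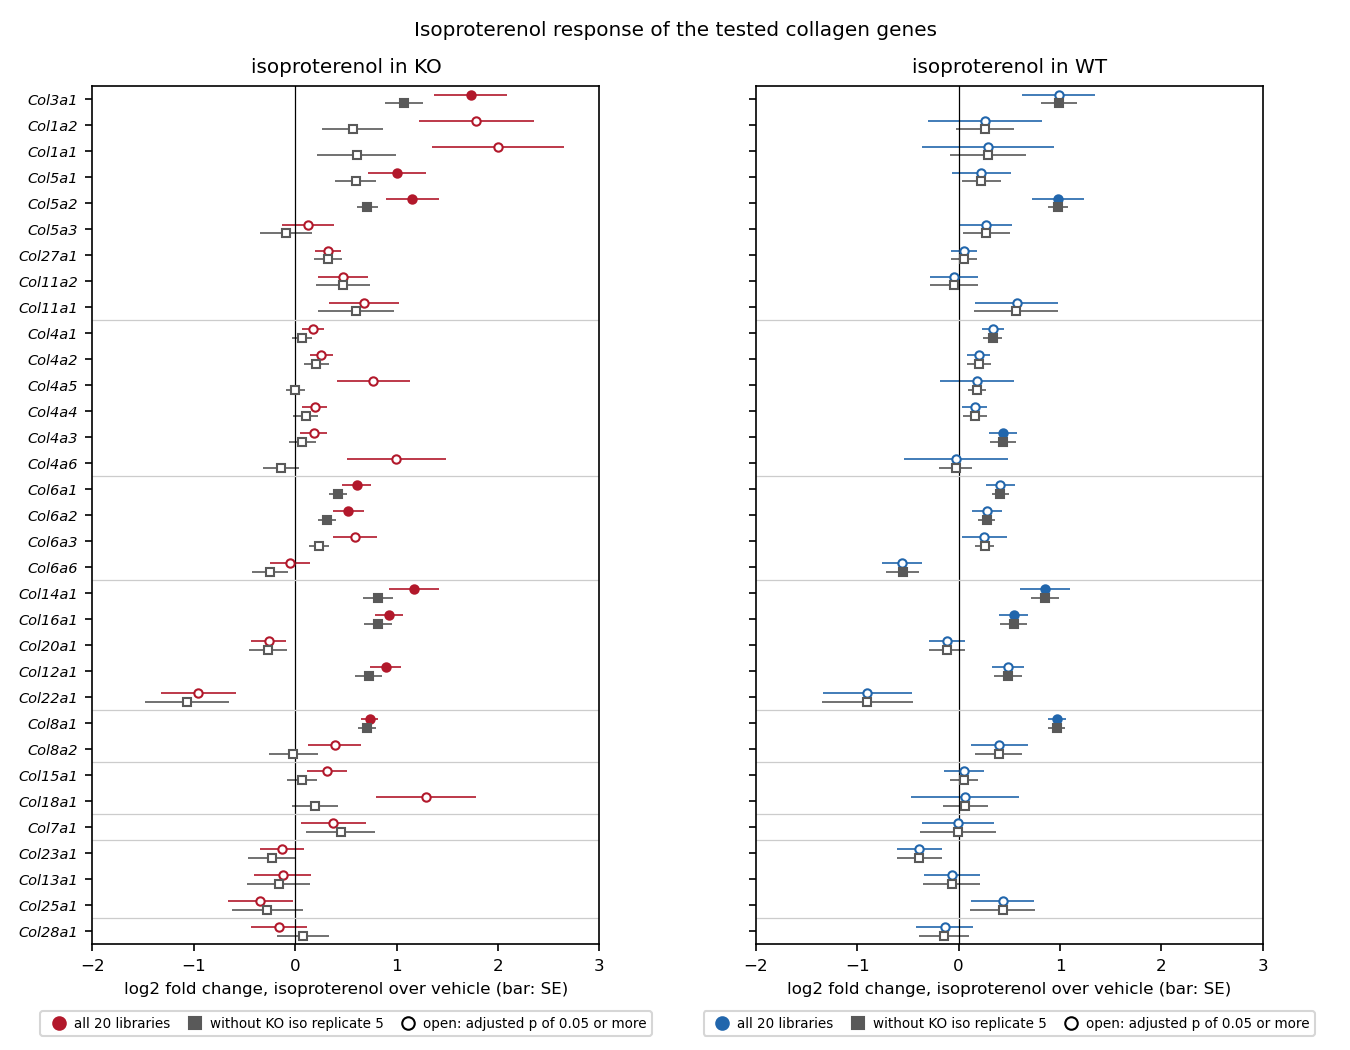
Log2 fold change of isoproterenol over vehicle in KO (left) and WT hearts (right) for the 33 tested collagen genes, with bars of 1 SE. Filled symbols passed at an adjusted p under 0.05, and squares leave out KO isoproterenol replicate 5. Col1a1 stands at 2.00 in KO with all libraries and at 0.61 without that replicate, while Col8a1 stands at 0.73 and 0.71.

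Among the fibrillar genes Col3a1 changed most in KO hearts among those that passed. Col3a1 (ENSMUSG00000026043; GRCm38 chromosome 1, 45311538 to 45349706) measured 238, 324, 185, 316 and 1031 CPM in the KO isoproterenol libraries, against 129, 94.2, 147, 115 and 148 CPM in the KO vehicle libraries. In WT it measured 251, 264, 304, 229 and 215 CPM under isoproterenol, against 169, 135, 112, 102 and 120.1 CPM under vehicle. The groups did not overlap in either genotype, and the last KO isoproterenol library lay far above the other 4. The log2 fold change was 1.73 in KO (standard error 0.363, adjusted p = 0.00632) and 0.99 in WT (standard error 0.357, adjusted p = 0.101). Without KO isoproterenol replicate 5 it was 1.07 in KO (standard error 0.186, adjusted p = 0.00196) and 0.99 in WT (standard error 0.178, adjusted p = 0.00186), so both genotypes passed at nearly the same size. A fit of only the KO groups, with 10 libraries, called 3 collagen genes in KO (Col8a1, Col16a1 and Col12a1), and Col3a1 was not among them (adjusted p = 0.0726).

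Col5a2, the alpha 2 chain of type V collagen, which regulates the diameter of type I fibrils, lies beside Col3a1 on chromosome 1 (45374321 to 45503282) on the opposite strand. It measured 44.9, 52.7, 39.6, 53.0 and 133 CPM in KO isoproterenol libraries, against 28.0, 24.2, 32.9, 28.8 and 31.7 CPM in KO vehicle libraries. The WT libraries measured 57.1, 49.1, 58.9, 45.7 and 42.8 CPM with isoproterenol, against 29.0, 27.7, 23.5, 23.3 and 25.2 CPM with vehicle, and again neither pair of groups overlapped. The log2 fold changes were 1.16 in KO (standard error 0.258, adjusted p = 0.0093) and 0.98 in WT (standard error 0.261, adjusted p = 0.027), or 0.71 and 0.98 without KO isoproterenol replicate 5 (adjusted p = 9.01e-05 and 4.65e-07). The WT call was lost without WT isoproterenol replicate 1 or 3, or WT vehicle replicate 3, 4 or 5 (adjusted p = 0.0538 to 0.0649).

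The genes of type I collagen, Col1a1 and Col1a2, did not pass in either genotype. Col1a1 measured 37.1, 56.4, 26.0, 48.0 and 379 CPM in the KO isoproterenol libraries, against 45.6, 13.2, 23.9, 19.4 and 34.8 CPM in the KO vehicle libraries, and 28.1, 40.2, 49.2, 21.0 and 21.7 CPM in WT isoproterenol, against 39.8, 34.7, 15.0, 23.8 and 18.7 CPM in WT vehicle libraries. Apart from replicate 5 of KO isoproterenol, the groups overlapped. Its log2 fold change was 2.00 in KO (standard error 0.650, adjusted p = 0.0664) and 0.29 in WT (standard error 0.653, adjusted p = 0.843), and 0.61 in KO without that library (standard error 0.387, adjusted p = 0.412). Col1a2 measured 57.9 to 649 CPM in KO isoproterenol, against 38.6 to 90.6 CPM in KO vehicle libraries, with log2 fold changes of 1.78 in KO (standard error 0.566, adjusted p = 0.0596), 0.57 in KO without replicate 5 (adjusted p = 0.31) and 0.26 in WT (adjusted p = 0.836). DESeq2 called both in KO (adjusted p = 0.0147 and 0.0131), and edgeR did so without KO isoproterenol replicate 1 or 3 (adjusted p = 0.047 and 0.034 for Col1a1, 0.0419 and 0.0295 for Col1a2) and, for Col1a2, without replicate 4 (adjusted p = 0.049).

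Col5a1, the alpha 1 chain of type V collagen, measured 57.4, 76.7, 47.9, 57.4 and 157 CPM in KO isoproterenol libraries, against 46.1, 34.0, 34.2, 31.3 and 52.0 CPM in KO vehicle libraries, and 34.2 to 67.5 CPM in WT isoproterenol, against 34.1 to 41.8 CPM in WT vehicle libraries. The groups overlapped in both genotypes. It passed in KO with a log2 fold change of 1.00 (standard error 0.285, adjusted p = 0.036), but not without KO isoproterenol replicate 5 (0.60, adjusted p = 0.0901), and had 0.22 in WT (adjusted p = 0.698). The KO call was also lost without KO isoproterenol replicate 2 or KO vehicle replicate 2, 3 or 4 (adjusted p = 0.0607 to 0.0901 over these fits). The averaged call of Col5a1 (0.61, adjusted p = 0.043) was lost in 13 of the 20 fits that left out 1 library (adjusted p = 0.0529 to 0.0822). Genes on the opposite strand cover 2.50% of its exon length. The other tested fibrillar genes, Col5a3, Col27a1, Col11a1 and Col11a2, had log2 fold changes of 0.12 to 0.68 in KO and −0.04 to 0.57 in WT, and none of these 4 passed in either genotype. Col27a1 passed on average with both outlying libraries left out (0.25, adjusted p = 0.0388).

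**Figure D3:**
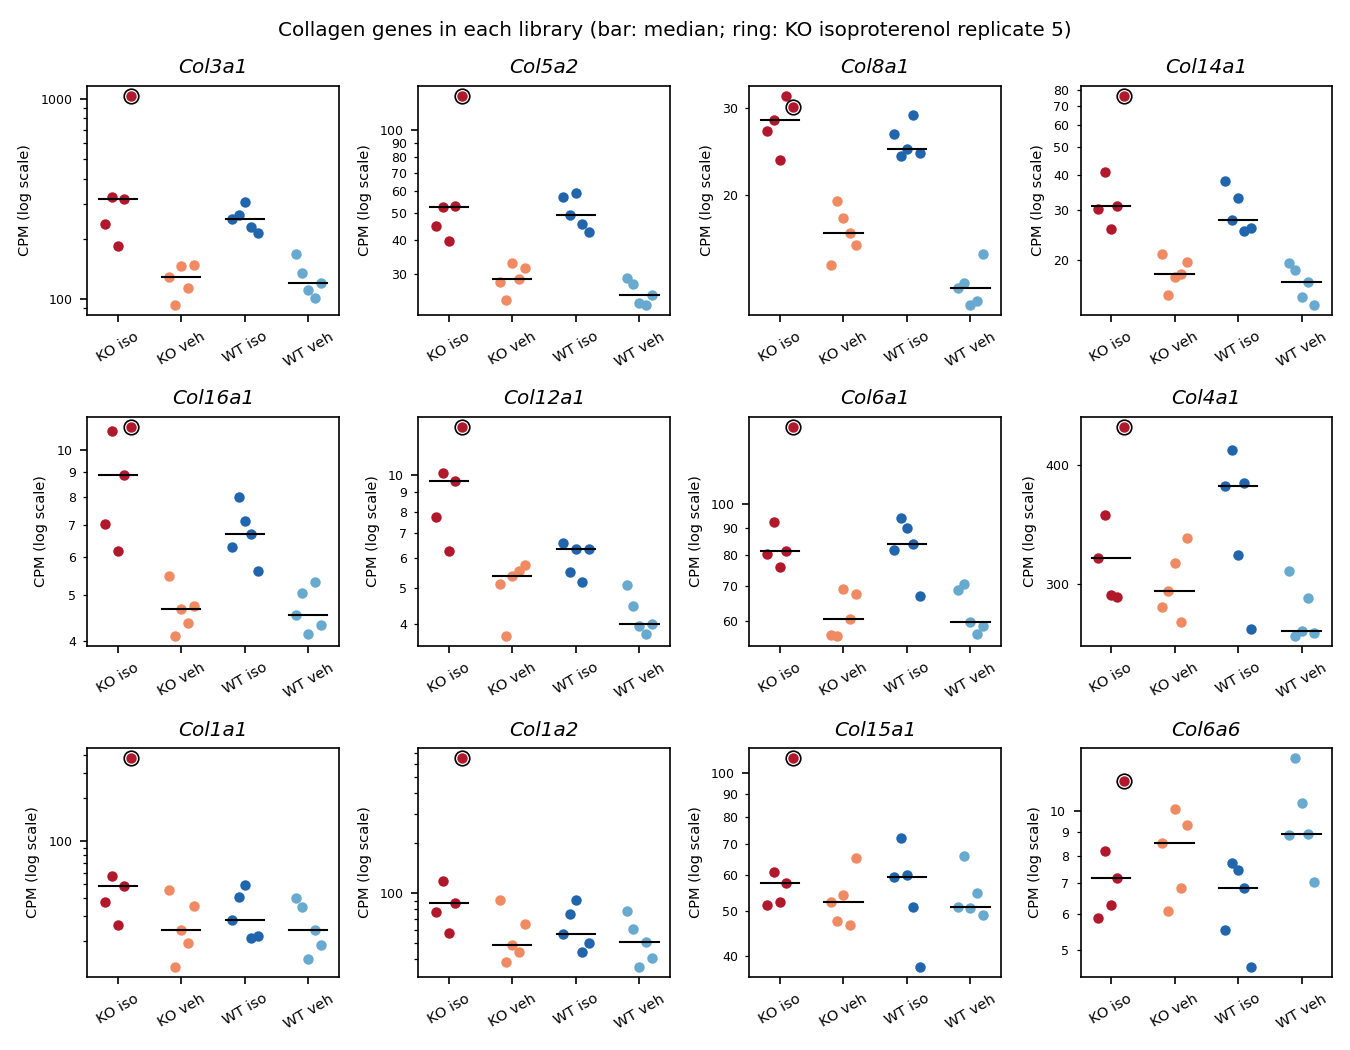
CPM of 12 collagen genes in each library (log scale, 5 points a group, bar at the median, ring around KO isoproterenol replicate 5). The isoproterenol and vehicle groups are separate in both genotypes for Col3a1, Col5a2, Col8a1, Col14a1, Col16a1 and Col12a1, and the ringed library lies above all others for Col1a1 and Col1a2 but within its group for Col8a1.

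Col8a1 had the smallest adjusted p of all collagen genes in both genotypes. It encodes a short chain of type VIII collagen, a network former of vessel walls and of the remodelling heart. Col8a1 (ENSMUSG00000068196; GRCm38 chromosome 16, 57624258 to 57754737) measured 26.9, 28.4, 23.5, 31.6 and 30.1 CPM in KO isoproterenol libraries, against 14.5, 19.5, 18.0, 16.8 and 15.9 CPM in KO vehicle libraries. In WT the libraries measured 26.6, 24.0, 24.7, 29.0 and 24.3 CPM with isoproterenol, against 13.0, 13.3, 12.1, 12.3 and 15.2 CPM with vehicle. The groups were apart in both genotypes, and KO isoproterenol replicate 5 lay inside its group. The log2 fold change was 0.73 in KO (standard error 0.0855, adjusted p = 1.09e-06) and 0.97 in WT (standard error 0.0878, adjusted p = 9.93e-09). It was 0.71 in KO without that library (adjusted p = 2.25e-06). Col8a2, the other chain of type VIII collagen, stood at 0.39 in KO (adjusted p = 0.406) and 0.40 in WT (adjusted p = 0.419), and at −0.02 in KO without replicate 5.

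Of the 5 tested FACIT genes, 3 rose in KO and 2 in WT hearts, where 4.75% and 4.64% of all genes tested were higher. Col14a1, whose product binds the surface of type I fibrils, measured 30.3, 40.8, 25.6, 30.9 and 75.8 CPM in KO isoproterenol libraries, against 20.9, 15.0, 17.3, 17.8 and 19.6 CPM in KO vehicle libraries, and 38.1, 27.7, 32.9, 25.3 and 25.9 CPM in WT isoproterenol, against 19.5, 18.4, 14.7, 16.7 and 13.8 CPM in WT vehicle libraries. No isoproterenol library of either genotype overlapped its vehicle group. The log2 fold change was 1.17 in KO (standard error 0.242, adjusted p = 0.00566) and 0.85 in WT (standard error 0.247, adjusted p = 0.0407), or 0.81 and 0.85 without KO isoproterenol replicate 5 (adjusted p = 0.00168 and 0.000564). The WT call was lost without KO vehicle replicate 4, any of WT isoproterenol replicates 1 to 4 or any of WT vehicle replicates 2 to 5 (adjusted p = 0.0512 to 0.0905).

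Col16a1, which ties fibrils to other matrix components, measured 7.03, 11.0, 6.16, 8.86 and 11.2 CPM in KO isoproterenol, against 5.46, 4.11, 4.67, 4.36 and 4.73 CPM in KO vehicle libraries, with WT isoproterenol at 5.59 to 8.01 CPM, against WT vehicle at 4.14 to 5.30 CPM. Its log2 fold changes were 0.92 in KO (standard error 0.138, adjusted p = 4.97e-05) and 0.54 in WT (standard error 0.142, adjusted p = 0.014). Col12a1, a fibril-surface collagen of tissues under tension, measured 7.73, 10.2, 6.27, 9.66 and 13.4 CPM in KO isoproterenol, against 5.13, 3.73, 5.37, 5.56 and 5.76 CPM in KO vehicle libraries, and 6.58, 5.52, 6.35, 5.18 and 6.36 CPM in WT isoproterenol, against 5.10, 4.47, 3.95, 3.76 and 4.00 CPM in WT vehicle libraries. For both genes the treated libraries lay above every vehicle library of their genotype. Col12a1 had log2 fold changes of 0.89 in KO (standard error 0.151, adjusted p = 0.00027) and 0.49 in WT (standard error 0.161, adjusted p = 0.0552), and passed in WT without KO isoproterenol replicate 5 (adjusted p = 0.0182).

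Col22a1, a FACIT collagen known from tissue junctions such as the muscle-tendon junction, went the other way. It measured 0.0998, 0.317, 0.164, 0.568 and 0.379 CPM in KO isoproterenol, against 0.625, 0.415, 0.640, 0.788 and 0.552 CPM in KO vehicle libraries, and 0.173, 0.0856, 0.250, 0.234 and 0.140 CPM in WT isoproterenol, against 0.255, 0.629, 0.348, 0.412 and 0.180 CPM in WT vehicle libraries. The groups overlapped in both genotypes at these low levels. In the averaged response Col22a1 fell by 0.93 on the log2 scale (standard error 0.288, adjusted p = 0.0223), while its changes of −0.96 in KO (adjusted p = 0.106) and −0.90 in WT (adjusted p = 0.215) did not pass. The averaged call was lost without WT vehicle replicate 2 (−0.82, adjusted p = 0.051). Col20a1, the remaining tested FACIT gene, had log2 fold changes of −0.26 in KO and −0.12 in WT and did not pass.

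Of the 4 tested genes of type VI collagen, 2 rose in KO, none passed in WT and 2 rose on average. The shares of all genes called as higher were 4.75%, 4.64% and 9.76%. Col6a1 measured 80.3, 92.5, 76.0, 81.5 and 140.1 CPM in KO isoproterenol libraries, against 56.4, 56.2, 69.1, 60.4 and 67.4 CPM in KO vehicle libraries, and 81.9, 94.2, 90.0, 84.1 and 66.7 CPM in WT isoproterenol, against 68.7, 70.4, 59.6, 56.7 and 58.6 CPM in WT vehicle libraries. The KO groups were apart and the WT groups overlapped through WT isoproterenol replicate 5, the lowest of its group. The log2 fold change was 0.61 in KO (standard error 0.141, adjusted p = 0.0101) and 0.41 in WT (standard error 0.141, adjusted p = 0.0774). With that KO library left out the values were 0.42 and 0.41, and both passed (adjusted p = 0.00328 and 0.00159).

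Col6a2, the alpha 2 chain, measured 62.0, 71.7, 55.7, 61.6 and 112 CPM in KO isoproterenol, against 46.9, 46.6, 51.9, 50.3 and 56.8 CPM in KO vehicle libraries, and 49.7 to 75.9 CPM in WT isoproterenol, against 48.5 to 55.8 CPM in WT vehicle libraries, with overlap in both genotypes. It had log2 fold changes of 0.53 in KO (standard error 0.150, adjusted p = 0.035) and 0.28 in WT (standard error 0.151, adjusted p = 0.286), or 0.32 and 0.28 without replicate 5 of KO isoproterenol (adjusted p = 0.0249 and 0.0289). Its KO call was lost without KO isoproterenol replicate 2 or any of KO vehicle replicates 1 to 4 (adjusted p = 0.0602 to 0.0809). Col6a3, the longest chain of the same filaments, had 0.59 in KO (adjusted p = 0.106), 0.25 in WT (adjusted p = 0.534) and 0.42 on average (adjusted p = 0.0672). Without KO isoproterenol replicate 5 the average for Col6a3 was 0.24 and passed (adjusted p = 0.00999), and with both outlying libraries left out it also passed in WT (0.31, adjusted p = 0.0312).

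Col6a6, a later-found chain that can stand in for the alpha 3 chain, measured 5.89, 8.19, 6.27, 7.16 and 11.6 CPM in KO isoproterenol, against 8.54, 6.07, 10.1, 6.81 and 9.31 CPM in KO vehicle libraries, and 5.54, 7.71, 7.46, 6.82 and 4.61 CPM in WT isoproterenol, against 8.87, 13.0, 10.4, 8.91 and 7.01 CPM in WT vehicle libraries. In WT 4 of the 5 vehicle libraries lay above all isoproterenol libraries, and in KO the groups were mixed. Its log2 fold change was −0.56 in WT (standard error 0.198, adjusted p = 0.0877) and −0.05 in KO (standard error 0.196, adjusted p = 0.922). In WT it passed as lower without KO isoproterenol replicate 5 (−0.55, adjusted p = 0.0329) but not when WT vehicle replicate 2 was left out as well (adjusted p = 0.0815). WT vehicle replicate 2 holds the highest value. On average Col6a6 had −0.30 (adjusted p = 0.141), and it passed as lower without KO isoproterenol replicate 5 (−0.40, adjusted p = 0.0246) and without both (−0.34, adjusted p = 0.0352).

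The sequence before the transcription start is shown for Col3a1, Col8a1 and Col6a2, genes of the fibrillar, short-chain and beaded filament classes. They passed in both genotypes without KO isoproterenol replicate 5. Only windows that hold no annotated exon are shown. Each is the 250 bases upstream of a RefSeq start on GRCm38.p6, 5′ to 3′ on the gene's own strand: chr1:45311288-45311537 (plus) for Col3a1, chr16:57754738-57754987 (minus) for Col8a1 and chr10:76623631-76623880 (minus) for Col6a2. Capitals mark matches, on either strand, to the TATA box TATAAA, the GC box GGGCGG, the SMAD element CAGAC, the MCAT element CATTCC and the CCAAT box CCAAT.
Col3a1: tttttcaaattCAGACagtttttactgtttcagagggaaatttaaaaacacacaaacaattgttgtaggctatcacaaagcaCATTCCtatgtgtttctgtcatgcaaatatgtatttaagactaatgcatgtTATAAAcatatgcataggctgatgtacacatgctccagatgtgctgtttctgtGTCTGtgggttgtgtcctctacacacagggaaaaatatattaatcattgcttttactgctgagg
Col8a1: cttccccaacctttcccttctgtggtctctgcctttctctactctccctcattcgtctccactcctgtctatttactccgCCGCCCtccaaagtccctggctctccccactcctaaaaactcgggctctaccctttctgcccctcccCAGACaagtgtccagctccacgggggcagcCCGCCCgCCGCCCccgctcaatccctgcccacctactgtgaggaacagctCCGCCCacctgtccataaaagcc
Col6a2: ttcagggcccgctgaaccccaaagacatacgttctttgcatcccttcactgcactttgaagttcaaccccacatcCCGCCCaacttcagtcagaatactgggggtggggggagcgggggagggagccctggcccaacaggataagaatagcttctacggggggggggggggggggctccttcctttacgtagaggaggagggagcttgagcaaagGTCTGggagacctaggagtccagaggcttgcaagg
Col3a1 held the TATA letters at 117 bases before the start, an MCAT match at 168 and SMAD matches at 239 and 64 bases. Col8a1 held 4 GC box matches, at 170, 73, 66 and 23 bases, and a SMAD match at 103 bases, and Col6a2 a GC box match at 175 and a SMAD match at 35 bases. No CCAAT match lay in these 3 windows. Col6a2 has another RefSeq window, not shown (chr10:76623405-76623654, with 226 bases in annotated exons). That window held 3 GC box matches, 1 MCAT match and no SMAD match. Of 32851 windows of the same length over all RefSeq promoters, 12.4% held the TATA letters, 32.7% the GC box, 42.2% the SMAD element, 12.6% the MCAT element and 33.8% the CCAAT box. Among the 35 collagen genes with a RefSeq window 5 held the TATA letters, 21 the GC box, 17 the SMAD element, 4 the MCAT element and 13 the CCAAT box. A gene counted here if any of its windows matched, and Col9a1, Col6a2 and Col18a1 had more than 1 window. These counts per gene are therefore not like the shares per window. For Col6a2 and Col18a1 the MCAT match lay in only 1 of their windows. A match describes letters and no bound site.

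Of the 6 basement membrane genes, none passed in KO, 1 passed in WT and 2 on average. Of all genes tested, 9.03%, 8.76% and 18.8% were called in the same order. The averaged count was 1 without KO isoproterenol replicate 5 and 0 without both libraries that stood apart. Col4a1 (GRCm38 chromosome 8, 11198423 to 11312826) measured 319.8, 354, 292, 291 and 438 CPM in KO isoproterenol, against 284, 295, 316, 274 and 335 CPM in KO vehicle libraries, and 381, 414, 322, 383 and 269 CPM in WT isoproterenol, against 309.7, 265, 268, 290.1 and 267 CPM in WT vehicle libraries. The groups overlapped in both genotypes. Its log2 fold change was 0.17 in KO (standard error 0.110, adjusted p = 0.374), 0.34 in WT (standard error 0.110, adjusted p = 0.0574) and 0.26 on average (standard error 0.0777, adjusted p = 0.0242), and WT passed without KO isoproterenol replicate 5 (adjusted p = 0.0206) but not with both outlying libraries left out (adjusted p = 0.0651). Col4a2 had 0.26 in KO (adjusted p = 0.177) and 0.20 in WT (adjusted p = 0.32).

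Col4a3, a chain of the specialised type IV network best known from the kidney glomerulus, measured 5.89 to 9.18 CPM in KO isoproterenol, against 5.19 to 8.31 CPM in KO vehicle libraries, which overlapped, and 6.64, 7.83, 6.55, 8.69 and 6.22 CPM in WT isoproterenol, against 5.71, 5.10, 4.84, 6.07 and 5.17 CPM in WT vehicle libraries, which did not. It passed in WT (0.44, standard error 0.137, adjusted p = 0.0428) and not in KO (0.18, standard error 0.135, adjusted p = 0.45), and the difference between the responses did not pass (−0.25, standard error 0.192, adjusted p = 0.754). On average Col4a3 had 0.31 (adjusted p = 0.0224), a call lost without KO isoproterenol replicate 5 (adjusted p = 0.0529), without WT isoproterenol replicate 4 (adjusted p = 0.0625) and with both outlying libraries left out (adjusted p = 0.0675). The WT call was lost without WT isoproterenol replicate 2, 3 or 4, or WT vehicle replicate 1, 2, 3 or 5 (adjusted p = 0.0505 to 0.161). A gene on the opposite strand covers 5.65% of the exon length of Col4a3, and its partner chain Col4a4 did not pass (0.19 in KO and 0.16 in WT). The X-linked pair Col4a5 and Col4a6 had 0.77 and 0.99 in KO with all libraries (adjusted p = 0.213 and 0.237) and 0.00 and −0.14 without KO isoproterenol replicate 5, with 0.18 and −0.03 in WT.

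The remaining classes held no gene that passed in either genotype or on average. Col15a1 measured 51.6, 60.8, 52.4, 57.6 and 107 CPM in KO isoproterenol, against 52.3, 47.6, 54.3, 46.8 and 65.2 CPM in KO vehicle libraries, and 37.9 to 72.2 CPM in WT isoproterenol, against 49.1 to 65.8 CPM in WT vehicle libraries. Its log2 fold change was 0.31 in KO, 0.06 in KO without replicate 5 and 0.05 in WT. Col18a1, the multiplexin from which endostatin is cleaved, had 1.29 in KO (adjusted p = 0.123), 0.19 without replicate 5 (adjusted p = 0.696) and 0.06 in WT. Col7a1, the anchoring fibril gene, had 0.38 in KO and −0.01 in WT, and Col28a1 −0.16 and −0.14. The transmembrane genes Col13a1, Col23a1 and Col25a1 lay between −0.35 and −0.12 in KO and between −0.39 and 0.44 in WT.

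Library KO isoproterenol replicate 5 carried a collagen profile of its own. Collagen genes took 1.05% of its counts outside the mitochondrial genome, against 0.307 to 0.429% in the other 4 libraries of its group. Of the 33 tested collagen genes 23 (69.7%) were higher in it than in any of the other 4 libraries of its group, against 28.8% of all genes tested, and 19 (57.6%) were higher than in all other 19 libraries, against 13.9% of all genes. These numbers describe 1 library and carry no test.

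The genes of type I collagen and a set of network and multiplexin genes stood out most. Col1a1 had 379 CPM in replicate 5, against 26.0 to 56.4 CPM in replicates 1 to 4, a ratio of 9.05 to their mean, and Col1a2 a ratio of 7.62. Col4a6 had 23.2 CPM in replicate 5, against 2.29 to 4.03 CPM in replicates 1 to 4, a ratio of 6.68, and its X-linked neighbour Col4a5 a ratio of 4.47. Col18a1 had 91.3 CPM in replicate 5, against 10.6 to 18.2 CPM in replicates 1 to 4, a ratio of 6.51. The genes of the averaged isoproterenol core had smaller ratios than these. The ratio was 3.88 for Col3a1, 2.79 for Col5a2, 2.38 for Col14a1 and 1.78 for Col6a2. It was 1.70 for Col6a1, 1.59 for Col12a1, 1.35 for Col16a1 and 1.09 for Col8a1. All of them but Col8a1 were still higher in replicate 5 than in every other library. Within the type IV family the common chains Col4a1 (1.39) and Col4a2 (1.18) were little above the other libraries, and Col28a1 was lower at 0.337.

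Markers of several cell types also stood apart in this library, where 28.8% of all genes tested were higher than in the other 4 libraries of its group. The 8 smooth muscle markers summed to 1453 CPM in replicate 5, against 443 to 497 CPM in replicates 1 to 4, and 7 of the 8 were higher there than in the other 4 libraries. The 6 genes of elastic artery and valve matrix, among them elastin, summed to 2420.5 CPM, against 193 to 259 CPM, and all 6 were higher there than in those libraries. Most of that sum was the elastin gene Eln (1961 CPM, against 32.8 to 43.8 CPM), while Emilin1 had 22.7 CPM, against 14.1 to 18.5 CPM. The median log2 ratio of the 6 genes to the median of the other 4 libraries was 1.32. The 7 adipocyte markers summed to 36.5 CPM, against 6.71 to 22.1 CPM, and 5 of the 7 were higher there. Adipocyte sums reached 32.6 CPM in WT isoproterenol and 29.1 CPM in KO vehicle libraries. The 8 chondrocyte markers summed to 22.0 CPM, against 14.0 to 18.2 CPM, and 4 of the 8 were higher there. Matn3 was among these 4, though Matn1 and Matn3 stayed under 0.1 CPM in every library. The 8 cardiomyocyte markers summed to 15828 CPM, against 19048 to 20053 CPM. The fibroblast sum was 977 CPM, against 923 to 1012 CPM, and most of it was Gsn (698 CPM, against 705 to 779 CPM). Of the 8 fibroblast markers 2 were higher in replicate 5 than in the other 4 libraries, Mfap5 (69.2 CPM, against 19.3 to 22.8 CPM) and Dpt (65.5 CPM, against 39.1 to 47.8 CPM). That count is near the share of all genes. The median log2 ratio of the 8 fibroblast markers to the median of the other 4 libraries was 0.03. The part of these markers in the collagen values was not tested.

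**Figure D4:**
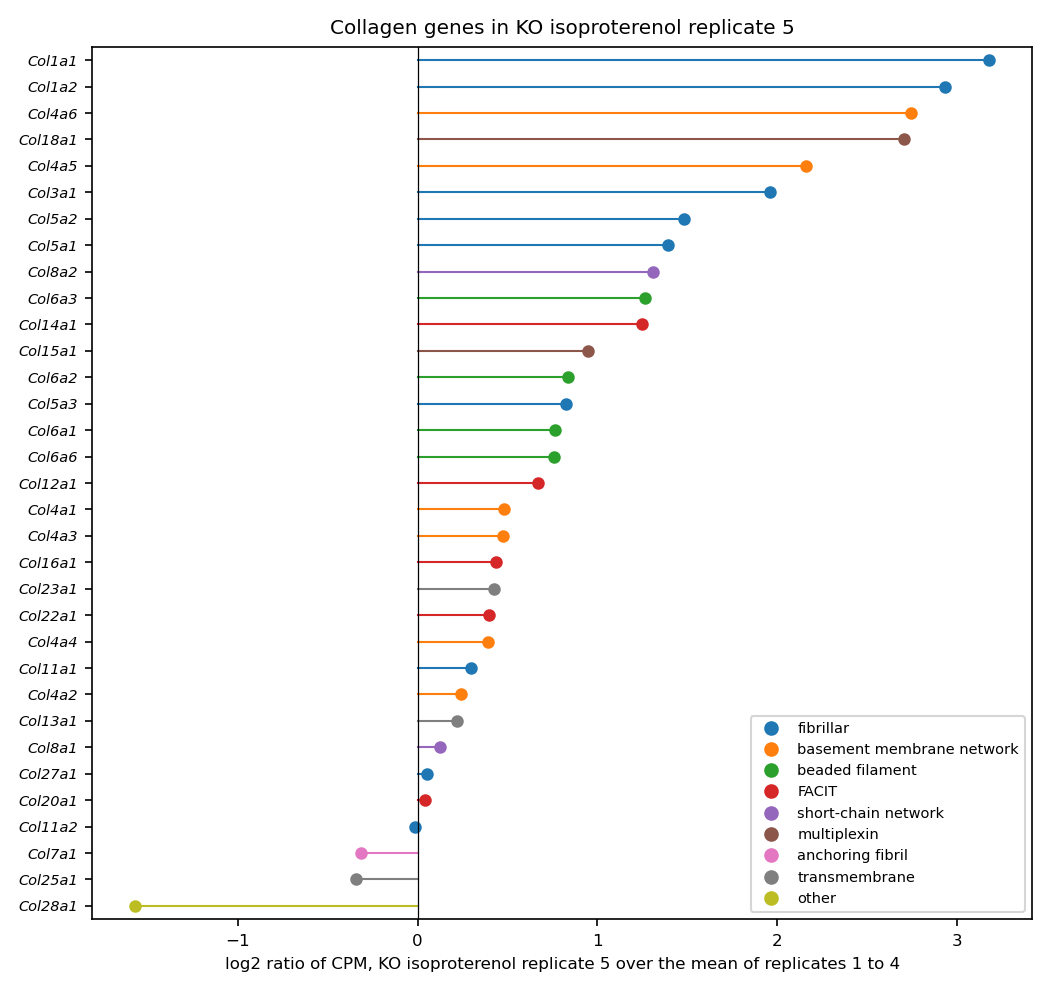
Log2 ratio of CPM in KO isoproterenol replicate 5 over the mean of replicates 1 to 4 for the 33 tested collagen genes, coloured by class. Col1a1, Col1a2, Col4a6 and Col18a1 lie above 2.5 at the top, Col8a1 lies near 0 and Col28a1 lies at −1.57.

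Between the genotypes no collagen gene passed. Under isoproterenol 0 of 33 were called for KO against WT in edgeR (0.181% of all genes were, 0.0538% as higher), 6 had an unadjusted p under 0.05, DESeq2 called 1 and limma-voom with quality weights 0. Under vehicle 0 were called (0.128% of all genes were), 3 had an unadjusted p under 0.05, DESeq2 called 1 and limma-voom 0. For the difference between the isoproterenol responses of KO and WT, edgeR called 0 of 33 and 0% of all genes, 0 collagen genes had an unadjusted p under 0.05, and DESeq2 and limma-voom called 0. Without KO isoproterenol replicate 5, edgeR called 0 of 33 in each of these comparisons. All genes called were then 0.226% under isoproterenol, 0.233% under vehicle (0.0799% higher and 0.153% lower) and 0.00666% for the difference, and the collagen genes with an unadjusted p under 0.05 numbered 2, 3 and 1. On simulated counts the test of the difference with all libraries recovered 23% of genes with a 1.5-fold and 72% with a 2-fold difference. Most differences of 1.5-fold were thus missed there. These shares cover 200 changed genes among 14713 tested, and recovery for the collagen genes alone was not tested. The shares therefore do not say which differences in collagen genes could have been found.

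The genes that DESeq2 called were Col12a1 under isoproterenol and Col8a1 under vehicle. Col12a1 measured 6.27 to 13.4 CPM in KO isoproterenol libraries, against 5.18 to 6.58 CPM in WT isoproterenol libraries, and 4 of the 5 KO libraries lay above all WT libraries. Its log2 fold change was 0.67 (standard error 0.151, adjusted p = 0.0605), and 0.51 without KO isoproterenol replicate 5 (adjusted p = 0.113). It passed without KO isoproterenol replicate 1 or 3 (adjusted p = 0.0427 and 0.00983), KO vehicle replicate 2 (adjusted p = 0.0381) or WT isoproterenol replicate 1 (adjusted p = 0.0476). Col8a1 measured 14.5 to 19.5 CPM in KO vehicle, against 12.1 to 15.2 CPM in WT vehicle libraries, which overlapped, with a log2 fold change of 0.36 (standard error 0.0889, adjusted p = 0.128). DESeq2 gave an adjusted p of 0.0119 for Col12a1 and 0.0453 for Col8a1. For Col3a1 the values were 0.73 under isoproterenol (0.07 without replicate 5) and −0.01 under vehicle.

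Ratios between chains that share a trimer or a fibre showed their largest difference for type V collagen in WT hearts, and none passed after adjustment. Ratios of counts within a library need no scaling between libraries, and 4 pairs of genes were compared in each genotype, 8 tests in all, with pairs chosen after the values had been seen. The ratio of Col5a2 to Col5a1, whose chains pair in type V collagen, was 1.22, 0.728, 1.35, 1.28 and 1.25 in WT isoproterenol libraries, against 0.694, 0.671, 0.689, 0.569 and 0.676 in WT vehicle libraries. Every treated library lay above every vehicle library. The log2 ratio differed by 0.79 (SE 0.172; two-sided exact permutation test p = 0.00794, the smallest that 5 against 5 can give; 0.0635 after Benjamini-Hochberg adjustment over the 8 tests). In KO the same ratio had geometric means of 0.809 under isoproterenol and 0.747 under vehicle, with overlap (exact permutation p = 0.500).

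The ratio of Col3a1 to Col1a1, the chains of the main interstitial fibres, was 8.93, 6.57, 6.18, 10.9 and 9.91 in WT isoproterenol libraries, against 4.24, 3.89, 7.45, 4.27 and 6.42 in WT vehicle libraries, which overlapped. The log2 ratio differed by 0.71 (exact permutation p = 0.0397, adjusted 0.159). In KO its geometric means were 5.42 under isoproterenol and 4.99 under vehicle (exact permutation p = 0.730), with 2.72 in replicate 5. The ratio of Col1a2 to Col1a1, which assemble together in type I collagen, lay between 1.71 and 2.93 over all 20 libraries (exact permutation p = 0.333 in KO and 0.778 in WT). For Col4a1 to Col4a2 the geometric means were 1.37 in KO isoproterenol and 1.47 in KO vehicle (exact permutation p = 0.135), and 1.49 in WT isoproterenol and 1.34 in WT vehicle libraries (exact permutation p = 0.0635). The unadjusted p of Col3a1 to Col1a1 in WT was 0.0794 without WT isoproterenol replicate 1, 4 or 5 or WT vehicle replicate 1, 2 or 4. That of Col4a1 to Col4a2 was 0.0159 in KO without KO isoproterenol replicate 5, and in WT 0.0476 without WT isoproterenol replicate 2 and 0.0317 without WT vehicle replicate 1 (exact permutation tests). Whether the ratios differ between genotypes was not tested.

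**Figure D5:**
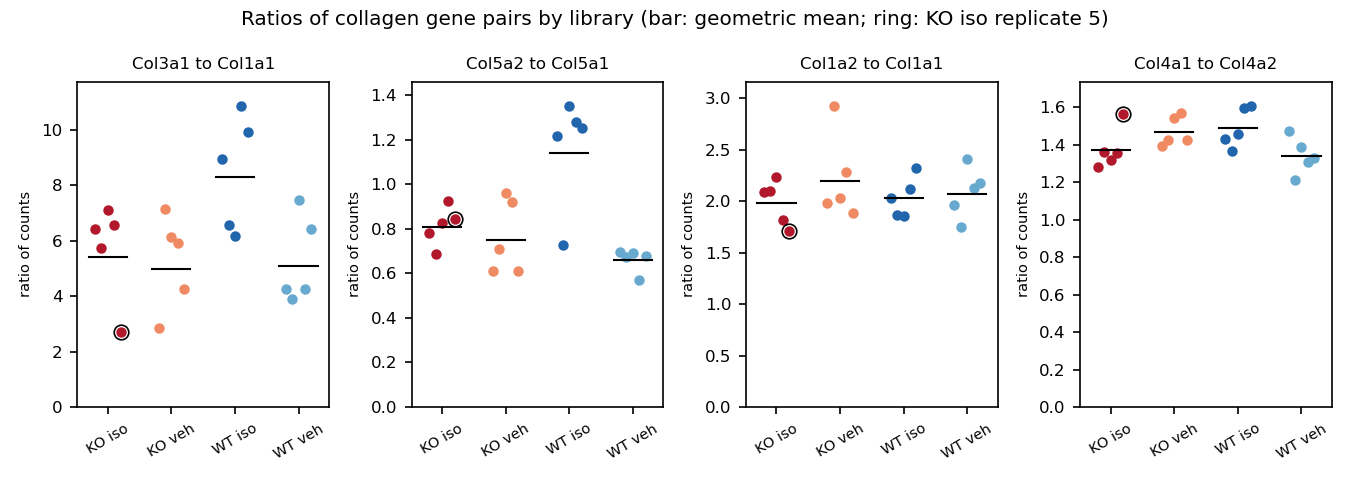
Ratio of counts for 4 pairs of collagen genes in each library (5 points a group, bar at the geometric mean, ring around KO isoproterenol replicate 5). For Col5a2 to Col5a1 the WT isoproterenol libraries lie between 0.728 and 1.35, all above the WT vehicle libraries.

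Genes that process or bind collagen were taken from 4 lists. Of 21 tested genes for folding and modification of the chains, 1 was higher and 1 lower in KO hearts, 2 were higher and 1 lower in WT hearts, and 4 were higher and 1 lower on average, where 9.03%, 8.76% and 18.8% of all genes were called. The averaged median log2 fold change was 0.11, and 0.04 without KO isoproterenol replicate 5, against 0.01 and 0.00 over all genes. P4ha2, a catalytic subunit of the prolyl 4-hydroxylase that stabilises the triple helix, fell by 0.26 in KO (adjusted p = 0.0154) and by 0.31 in WT (adjusted p = 0.00375) on the log2 scale. P3h3, a member of the prolyl 3-hydroxylase family, rose in KO (0.67, adjusted p = 0.00882) and had 0.32 (adjusted p = 0.266) in WT. Without KO isoproterenol replicate 5, P3h3 had 0.40 in KO (adjusted p = 0.025) and 0.31 in WT (adjusted p = 0.0554). The lysyl hydroxylase gene Plod3 rose in WT (0.26, adjusted p = 0.0407) and had 0.17 (adjusted p = 0.196) in KO. P3h2, another prolyl 3-hydroxylase gene, rose on average (0.32, adjusted p = 0.013).

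Of 13 tested genes for propeptide cleavage and cross-linking, 6 were higher and 1 lower in KO, 3 were higher and 0 lower in WT, and 6 were higher and 1 lower on average, against 4.75% of all genes higher in KO, 4.64% in WT and 9.76% on average. The median log2 fold change was 0.63 in KO and 0.36 in WT. Leaving out KO isoproterenol replicate 5 gave 6 higher and 1 lower in KO with a median of 0.41, and 5 higher and 0 lower in WT with a median of 0.36. The lysyl oxidase family genes Loxl2 and Loxl3, whose products cross-link collagen, rose by 0.63 and 0.81 in KO and by 0.72 and 0.71 in WT (adjusted p = 0.000297, 0.000189, 6.63e-05 and 0.00129 in that order). Pcolce, an enhancer of C-propeptide cleavage, rose by 0.41 in KO and 0.43 in WT (adjusted p = 0.000224 and 0.000147). Tll2, a protease of the family that removes C-propeptides, fell by 1.88 on the log2 scale in KO (adjusted p = 0.00537) and had −0.97 (adjusted p = 0.154) in WT. Without KO isoproterenol replicate 5, Tll2 had −1.49 in KO (adjusted p = 0.0144) and −0.97 in WT (adjusted p = 0.0817).

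Of 10 tested collagen receptors 4 were higher in KO, 2 in WT and 5 on average, and 0 were lower in any of these (median 0.24 on average), against the same 4.75%, 4.64% and 9.76% of all genes higher. Leaving out KO isoproterenol replicate 5 gave 3 in KO, 3 in WT and 5 on average. Mrc2, an endocytic receptor that takes up collagen, had 0.62 (adjusted p = 8.20e-05) in KO and 0.29 (adjusted p = 0.0604) in WT. Without that library Mrc2 passed in both, with 0.58 in KO (adjusted p = 0.000238) and 0.30 in WT (adjusted p = 0.0436). The integrin gene Itga2 rose in KO (1.01, adjusted p = 0.00654) and WT (0.76, adjusted p = 0.0445), and the receptor kinase gene Ddr1 rose in KO (0.30, adjusted p = 0.0405) with 0.27 (adjusted p = 0.0704) in WT. Itga1, the alpha 1 chain of a collagen-binding integrin, had −0.0017 (adjusted p = 0.991) in KO and 0.34 (adjusted p = 0.000341) in WT, and the difference between the responses did not pass (−0.34, adjusted p = 0.518).

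Of 17 collagen-binding matrix genes, all tested, 11 rose in KO, 6 in WT and 11 on average, again beside 4.75%, 4.64% and 9.76% of all genes, and 0 fell (median 0.59 in KO, 0.22 in WT, against 0.01 and 0.00 over all genes tested). When KO isoproterenol replicate 5 was left out, the counts were 8 in KO and 9 in WT. The small proteoglycan genes Aspn, Lum and Bgn, whose products bind fibrils, rose by 0.87, 0.64 and 0.64 in KO (adjusted p = 2.01e-05, 4.30e-05 and 0.000114) and by 0.92, 0.56 and 0.48 in WT (adjusted p = 1.17e-05, 0.000297 and 0.00237). Thbs2, a matricellular protein of fibril assembly, rose by 0.64 in KO and 0.34 in WT (adjusted p = 9.81e-06 and 0.0107).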

How the data were processed

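Total RNA from hearts was sequenced from TruSeq stranded libraries, per the labels' protocols. The deposited values are whole read counts per gene. The submitters' processing notes name HISAT2 2.1.0, featureCounts 1.6.3 and the GRCm38 genome. Which gene annotation the authors counted against, whether by strand, and how reads with several matches were handled is not given in the sources used here. Of 55335 gene IDs, 55154 were found in GENCODE vM21, which gave symbols, exon lengths and coordinates.

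The counts were fitted with edgeR 4.0.16 in R 4.3.3 (filterByExpr, TMM scaling, robust quasi-likelihood fit, 1 mean for each of 4 groups, 16 residual degrees of freedom). The filter kept 14878 genes, and p-values were adjusted over all of them by the Benjamini-Hochberg method with a threshold of 0.05. CPM are counts per 1000000 counts of the scaled library, mitochondrial counts included. Alternatives were DESeq2 1.42.0, limma-voom 3.58.1 with quality weights, other scalings, no filter, only the groups compared, and leaving out 1 library at a time or both libraries known to stand apart. The levels by longest coding transcript and the ratios were chosen after seeing the data. Ratios of gene pairs were tested by exact permutation. The fit was tested on simulated counts.

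The collagen genes, the gene lists and the tests were chosen with earlier results of these data known. Values are given for genes that passed in any comparison, with all libraries or without KO isoproterenol replicate 5, and for the highest gene per length in each class. Col1a1, Col1a2, Col4a2, Col4a5, Col4a6 and Col18a1 were added after their values were seen. From each list of other genes the 4 with the smallest p are named. Promoter sequences are from RefSeq.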

Additional observations from a re-analysis of the deposited data

Results flagged for a closer look

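In 9 of 96 groups of 5 libraries checked on the log2 scale (24 collagen genes in 4 groups), 1 library lay far from the other 4 by Dixon's criterion, which chance alone meets in about 1 group of 20. The 18 genes named by rule, which used calls and levels from these data, gave 4 of 72 groups. Among these, Col5a2, Col6a3 and Col15a1 were flagged for the same library, KO isoproterenol replicate 5. The other 5 came from 24 groups of the 6 genes added after their values were seen. Neither number can therefore be set against chance. Of the 9 groups, 7 had KO isoproterenol replicate 5 above the rest, with 379 CPM for Col1a1 (others 26.0 to 56.4), 133 CPM for Col5a2 (others 39.6 to 53.0) and 145 CPM for Col6a3 (others 54.2 to 63.2). The same library also had 115 CPM for Col4a5 (others 24.1 to 27.0), 23.2 CPM for Col4a6 (others 2.29 to 4.03), 107 CPM for Col15a1 (others 51.6 to 60.8) and 91.3 CPM for Col18a1 (others 10.6 to 18.2). KO vehicle replicate 2 was low for Col12a1 at 3.73 CPM, where the others had 5.13 to 5.76 CPM. KO vehicle replicate 1 was high for Col4a6 at 4.63 CPM, where the others had 3.54 to 3.80 CPM.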

How the results depend on the processing

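No paired analysis was made because the labels give no pairing of libraries. They give no replicate numbers either, and the numbers used here follow the order of the samples within each group. Of the alternatives for single genes, 1841 kept their direction and their side of the threshold, 61 lost a call, 57 gained one and 24 changed sign. Isoproterenol in KO called 3 collagen genes when only the KO groups were compared. Isoproterenol in WT called 10 with DESeq2, 9 with limma-voom, 11 with only the WT groups and 10 without both libraries that stood apart. KO against WT called 1 under isoproterenol and 1 under vehicle, with DESeq2 and with no filter on low counts. Leaving out 1 library at a time gave 7 to 11 calls in KO (lowest and highest), 2 to 11 in WT, 11 to 16 on average, 0 to 1 for KO against WT under isoproterenol, 0 to 0 under vehicle and 0 to 0 for the difference. Over the same fits the log2 fold change in KO ranged over −0.38 to 0.080 for Col28a1, −0.14 to 1.22 for Col4a6 and −0.25 to 0.041 for Col6a6. In WT it ranged over −0.056 to 0.16 for Col15a1, −0.036 to 0.15 for Col18a1, −0.12 to 0.10 for Col4a6 and −0.22 to 0.25 for Col7a1, and on average over −0.086 to 0.60 for Col4a6. The log2 ratio difference of Col3a1 to Col1a1 in KO ranged over −0.086 to 0.37, and that of Col1a2 to Col1a1 in WT over −0.091 to 0.024. Without both libraries that stood apart, Col28a1 was 0.080 in KO and 0.013 on average, Col4a6 −0.14 in KO and −0.10 on average, and Col7a1 0.097 in WT. With limma-voom Col7a1 was 0.11 in WT and Col4a6 −0.0092 on average. None of the genes that changed sign had passed with all libraries, and the cause was not tested. The 11 genes not tested had too few counts for the filter.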

Other observations

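Several collagen genes are neighbours in the genome (GENCODE vM21, GRCm38). Col3a1 and Col5a2 lie 24.6 kb apart on chromosome 1 with their 3′ ends facing, and both passed in KO (1.73 and 1.16 on the log2 scale). Col4a4 and Col4a3 start 71 bases apart on opposite strands, with 0.16 and 0.44 in WT, of which only Col4a3 passed, and the difference between these genes was not tested. Col4a6 and Col4a5 start 1308 bases apart on the X chromosome, and both were high in KO isoproterenol replicate 5. Col6a2 and Col6a1 lie 85.2 kb apart on the same strand of chromosome 10, and both passed in KO.

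Markers of other cells of the heart also moved. The 8 macrophage markers summed to 200.2 to 226 CPM in KO isoproterenol, 176 to 183 CPM in KO vehicle, 166 to 269 CPM in WT isoproterenol and 150.3 to 181 CPM in WT vehicle libraries, and 6 of the 8 were higher in the averaged response (edgeR). The share of all genes higher in that response was 9.76%. The 8 endothelial markers summed to 502 to 552 CPM in KO isoproterenol, against up to 557 CPM in KO vehicle libraries, which overlapped, and to 537 to 583 CPM in WT isoproterenol, against 489 to 520.3 CPM in WT vehicle libraries, which did not. Of these markers 0 were higher and 1 lower in KO (9.03% of all genes were called), 3 were higher and 0 lower in WT (8.76%), and 3 were higher and 1 lower on average (18.8%).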
